A study of Mus musculus with 4 samples.

Results

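Neurogranin (Nrgn), Pcp4 and Gap43 encode small neuronal proteins that bind calmodulin, the calcium sensor of the cytoplasm, through a short stretch called the IQ motif. They are described here together with 6 genes of the calmodulin kinase family, Camk2a, Camk2b, Camk4, Camkk1, Camkk2 and Camkv. The 9 genes were taken by symbol from a table of 25259 genes, and all 9 passed the filter on low values that left 19561 genes for testing. They were chosen by gene family after their normalised read counts in the striatal regions had been seen, so their differences between striatal regions are given as a description, with no test, while their differences between genotypes were tested.

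The mice were C57BL/6 animals aged 8 weeks, and carried either the wild-type or, on both chromosomes, a humanised form of Foxp2 (Foxp2hum/hum). Foxp2 encodes a forkhead transcription factor known for its role in vocal learning and speech, and the study asks how the humanised form bears on the move from declarative to procedural learning. Tissue came by laser capture from dorsomedial striatum (DMS), a region tied to goal-directed behaviour, or from dorsolateral striatum (DLS), a region tied to habits. Of the 46 libraries, 11 of each region were wild-type and 12 of each region were Foxp2hum/hum. No treatment is named in the labels. Which animal gave which library is not stated, so the spread and the p-values below are between libraries, which may in part be technical.

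When calcium enters a neuron, calcium-loaded calmodulin activates several enzymes. CaMKII, built from the alpha and beta subunits that Camk2a and Camk2b encode, is the abundant kinase of the postsynaptic density and is known for its part in synaptic plasticity. The kinases encoded by Camkk1 and Camkk2 phosphorylate and activate CaMKIV, the nuclear kinase encoded by Camk4, which acts on CREB. Neurogranin in dendrites and Gap43 in axons bind calmodulin mainly when calcium is low and release it when protein kinase C phosphorylates them, while Pcp4 speeds the exchange of calcium with calmodulin.

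The IQ motif is what the first 3 genes share, so the coding sequence over it is shown for Nrgn and Pcp4, with that of Pcp4l1, the close relative of Pcp4. The motif searched was an isoleucine, leucine, valine or phenylalanine followed by glutamine, then a basic residue after 3 further codons and another after 4 more. The sequences were read from GENCODE M1 coding transcripts on mm9 and run 5′ to 3′ on the coding strand. Capitals mark the codons of the fixed residues, and the motif spans 33 bases within the 57 printed.
Nrgn: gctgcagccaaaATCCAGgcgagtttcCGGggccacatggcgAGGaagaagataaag
Pcp4: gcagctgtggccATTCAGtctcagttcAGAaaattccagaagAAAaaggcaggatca
Pcp4l1: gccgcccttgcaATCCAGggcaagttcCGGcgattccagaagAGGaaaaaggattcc
The Nrgn stretch lies in a coding exon at chr9:37353634-37353690 on the minus strand, with the motif starting at codon 33 of 78. The Pcp4 stretch lies in a coding exon at chr16:96747059-96747115 on the plus strand, with the motif at codon 46 of 62, and that of Pcp4l1 in a coding exon at chr1:173104523-173104579 on the minus strand, at codon 52 of 68. Pcp4 matched Pcp4l1 at 22 of 33 motif bases (66.7%) and Nrgn at 14 (42.4%), and Nrgn matched Pcp4l1 at 21 (63.6%). Of 6111 genes with a coding sequence of at most 230 codons, 199 held the pattern (3.3%).

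The libraries held 16.79 to 41.01 M reads over the genes (M for mega), with medians between 20.43 M and 24.36 M in the groups. Values are the authors' normalised read counts, that is, reads per gene divided by a library's size factor. Each library correlated with the mean of the rest of its group at r = 0.937 to 0.989 across genes. The lowest was library 72 of wild-type DMS, and leaving it out with library 70 changed no call on the 9 genes. Medium spiny neurons are the principal cells of the striatum, and their 10 markers were above 0 in every library. Their summed value ran from 91910 to 136500 in the DMS libraries and from 142400 to 178700 in the DLS libraries. In these bulk samples, fewer cells of a type and less RNA per cell cannot be told apart. The humanised allele changes the coding sequence, so the Foxp2 level does not check the labels, and it was 1337 ± 263 and 1332 ± 193 in wild-type and Foxp2hum/hum DMS (SD, n = 11 and 12).

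Relative to the summed length of its exons, Pcp4 was the most highly read of the 9 genes over all libraries, at 41356 normalised reads per kilobase, followed by Nrgn at 16913. Camkv, Camk2a and Gap43 followed at 3304, 2743 and 2358 per kilobase, then Camk2b at 1307, Camkk2 at 539, Camk4 at 459 and Camkk1 at 223. Reads appeared to be counted over whole gene spans on both strands, introns included, so these levels per kilobase of exon are approximate. Pcp4 shares exon sequence on the same strand with Igsf5, whose value was 70.4% of that of Pcp4 and followed it at r = 0.999 across libraries, and their reads cannot be told apart. No other of the 9 genes overlapped a gene with 5% of its value or more.

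Nrgn and Pcp4 were lower in DMS than in DLS in both genotypes, Gap43 was higher in DMS, and Camkk2 was lower in DMS. Camk4, Camkk1 and Camk2a averaged slightly lower in DMS, Camk2a with a sign that depended on the scaling, and Camk2b and Camkv had regional differences between -0.06 and 0.01 (log2). Nrgn was the gene that separated the regions most.

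**Figure D1:**
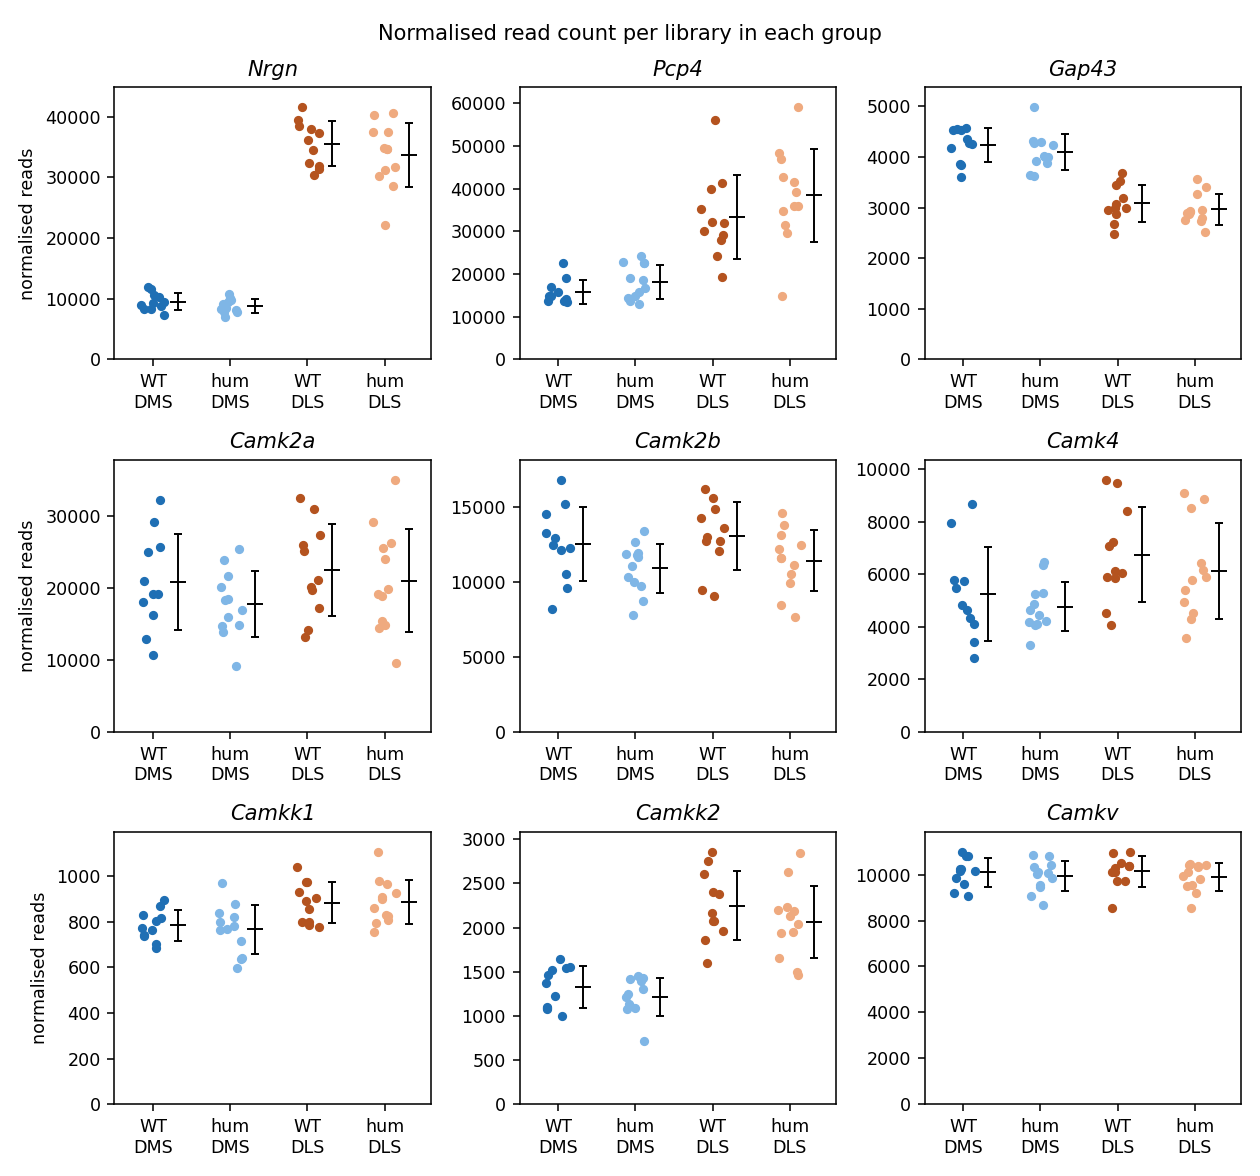
Normalised read count (vertical axes, starting at 0) of each of the 9 genes in wild-type (WT) and Foxp2hum/hum (hum) DMS and DLS. Each point is 1 library, and the bar beside the points gives the mean ± SD. All Nrgn points of DMS lie at 11900 or lower and all those of DLS at 22090 or higher, while the Camkv points of the 4 groups cover the same range.

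Nrgn (chr9:37352078-37360330, minus strand, mm9) ran from 7338 to 11900 in wild-type DMS (median 9318) and from 30380 to 41550 in wild-type DLS (median 36100). In Foxp2hum/hum mice it ran from 6921 to 10770 in DMS (median 8590) and from 22090 to 40580 in DLS (median 34670). No DMS library reached a DLS library in either genotype. The mean in DLS was 3.73-fold that in DMS in wild-type mice and 3.83-fold in Foxp2hum/hum mice, and the DMS minus DLS difference was -1.91 ± 0.09 and -1.93 ± 0.09 on the log2(value + 1) scale (limma estimate ± SE, n = 11 and 11, 12 and 12).

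Pcp4 (chr16:96689213-96747400, plus strand) ran from 13560 to 22660 in wild-type DMS (median 14750) and from 19370 to 56160 in wild-type DLS (median 31910). In Foxp2hum/hum mice it ran from 12970 to 24150 in DMS (median 17640) and from 14940 to 59010 in DLS (median 37540). The regions overlapped: 10 of 11 wild-type DMS libraries, but only 4 of 12 Foxp2hum/hum DMS libraries, were below every DLS library of their genotype. The means in DLS were 2.12-fold and 2.11-fold those in DMS, with DMS minus DLS differences of -1.05 ± 0.16 and -1.04 ± 0.15 (log2 ± SE). Under the alternative scalings, filters and tools, the difference ran from -1.085 to -0.76 in wild-type mice and from -1.11 to -0.73 in Foxp2hum/hum mice. The DLS values of Pcp4 were the more scattered, with a highest value 3.95 times the lowest in Foxp2hum/hum DLS.

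Gap43 (chr16:42248555-42340764, minus strand), a marker of growing axons and of presynaptic plasticity, had the opposite order. It ran from 3596 to 4569 in wild-type DMS (median 4273) and from 2485 to 3692 in wild-type DLS (median 3001). In Foxp2hum/hum mice it ran from 3621 to 4978 in DMS (median 4013) and from 2525 to 3564 in DLS (median 2909). In wild-type mice 10 of 11 DMS libraries were above every DLS library, and in Foxp2hum/hum mice all 12 were. The mean in DMS was 1.37-fold and 1.38-fold that in DLS, a difference of 0.46 ± 0.07 and 0.47 ± 0.06 (log2 ± SE).

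Camkk2 (chr5:123183213-123229391, minus strand), which encodes an activator of CaMKIV and of AMP-activated protein kinase, ran from 1003 to 1647 in wild-type DMS (median 1376) and from 1598 to 2852 in wild-type DLS (median 2160). In Foxp2hum/hum mice it ran from 714.5 to 1449 in DMS (median 1229) and from 1463 to 2842 in DLS (median 2087). The wild-type groups overlapped through 1 DMS library, and the Foxp2hum/hum groups did not overlap. The DMS minus DLS difference was -0.76 ± 0.11 in each genotype (log2 ± SE).

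Camkk1 (chr11:72832510-72855575, plus strand), the sister kinase, lay closer between regions, at 783.5 ± 66.7 in wild-type DMS against 883.1 ± 89.6 in wild-type DLS and 766.8 ± 107 against 886.7 ± 97.2 in Foxp2hum/hum mice (SD). The mean log2 ratio of Camkk2 to Camkk1 was 0.74 ± 0.22 and 0.65 ± 0.26 in wild-type and Foxp2hum/hum DMS, and 1.33 ± 0.26 and 1.20 ± 0.36 in DLS (SD). The ratio of these activating kinases therefore also stood higher in DLS.

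Camk4, on chromosome 18 (plus strand), ran from 2802 to 8678 in wild-type DMS (median 4815) and from 4070 to 9598 in wild-type DLS (median 6119). In Foxp2hum/hum mice it ran from 3320 to 6451 in DMS (median 4537) and from 3568 to 9093 in DLS (median 5845). The regions overlapped widely, and the DMS minus DLS differences were -0.39 ± 0.16 and -0.33 ± 0.16 (log2 ± SE).

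Camk2a, also on chromosome 18 (plus strand), ran from 10660 to 32140 in wild-type DMS (median 19170) and from 13110 to 32500 in wild-type DLS (median 21040). In Foxp2hum/hum mice it ran from 9119 to 25450 in DMS (median 17610) and from 9609 to 35000 in DLS (median 19500). Camk2b (chr11:5869647-5966365, minus strand) had group medians between 11350 and 12960. Both genes covered nearly the same range in both regions. Their DMS minus DLS differences were -0.12 ± 0.19 and -0.21 ± 0.18 for Camk2a and -0.06 ± 0.11 in each genotype for Camk2b (log2 ± SE), and all 4 turned positive under quantile normalisation (0.17 and 0.04 for Camk2a, 0.14 and 0.15 for Camk2b).

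Camkv (chr9:107838251-107852022, plus strand) encodes a kinase-like protein without kinase activity. It had means of 10100 ± 629 and 9936 ± 659 in wild-type and Foxp2hum/hum DMS, and of 10150 ± 667 and 9891 ± 600 in DLS (SD). Its coefficient of variation was 6.06% to 6.64% within the groups, where the median gene with a mean of at least 50 had 18.6% to 21.5%. Its regional differences of -0.01 and 0.01 became 0.17 and 0.19 under quantile normalisation.

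Without overlap between regions stood 1 of the 9 genes in wild-type mice (Nrgn) and 3 of 9 in Foxp2hum/hum mice (Nrgn, Gap43 and Camkk2). Over all genes tested these shares were 1.95% and 2.2%. The members were chosen with the regional results known, so nothing is read from these counts.

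Cell type markers moved between the regions too. Of the 10 medium spiny neuron markers, 7 passed the test as lower in DMS in each genotype, with median log2 differences of -0.48 and -0.46 (limma, adjusted p under 0.05). All 5 markers of neuroblasts, the migrating immature neurons that express Dcx and Sox11, were higher in DMS in each genotype, where their summed value ran from 633 to 2523 against 137.9 to 349.2 in DLS. Of 6 markers of choroid plexus and ependyma, which line the ventricle, 5 were higher in DMS in each genotype, and their sum ran from 175.9 to 10300 in DMS and from 50.73 to 231.6 in DLS. The summed 8 markers of cortical projection neurons, cells rich in Nrgn and Camk2a, ran from 301.6 to 849.1 in DMS and from 334.4 to 1614 in DLS, with 0 of 6 tested markers passing in wild-type mice and 1 of 6, higher in DMS, in Foxp2hum/hum mice. The part of these cell types in the regional differences was not tested.

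Within the groups, with each group mean removed, most of the 9 genes varied with the mean of the medium spiny neuron markers. These correlations are over the 46 libraries, were computed as those between the genes below, and say nothing on the difference between regions. Higher with the marker mean were Camk2b (r = 0.765, rho = 0.711), Camk4 (r = 0.711, rho = 0.661), Camkk2 (r = 0.618, rho = 0.624), Camk2a (r = 0.526, rho = 0.474) and Camkv (r = 0.5, rho = 0.532), with adjusted permutation p of 0.00174 or less for r. Without the 2 libraries farthest from each gene's median these r were 0.736, 0.635, 0.572, 0.506 and 0.54. Camkk1 had r = 0.338 (rho = 0.298, adjusted permutation p = 0.0326 for r and 0.0848 for rho, r = 0.248 without its 2 farthest libraries). Gap43 and Pcp4 were lower where the marker mean was higher, with r = -0.425 (rho = -0.402, adjusted permutation p = 0.00866, r = -0.453 without the 2 farthest libraries) and r = -0.362 (rho = -0.466, adjusted permutation p = 0.0144, r = -0.427 without them). By group the r of Pcp4 was -0.688 and -0.731 in wild-type DMS and DLS, against 0.036 and -0.114 in the Foxp2hum/hum groups, and that of Camk2a was 0.769 and 0.757 against 0.127 and 0.285. Not every gene was split in this way. In the same order, Camk4 had 0.952 and 0.778 against 0.548 and 0.307, while Camkv had 0.761 and 0.241 against 0.512 and 0.561. Whether the genotypes differ in these relations was not tested. Nrgn had r = 0.072 (adjusted permutation p = 0.747). Camk4, Camk2a, Camk2b and Camkk2 also rose with the length score defined below (r = 0.942, 0.896, 0.885 and 0.821). Pcp4, Gap43 and Nrgn fell with it (r = -0.905, -0.739 and -0.394), while Camkv and Camkk1 had r = 0.086 and -0.008. The marker relations were not separated from the score.

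With the neuroblast mean, Pcp4 had r = -0.368 (rho = -0.299, adjusted permutation p = 0.0149 for r and 0.0848 for rho, r = -0.318 without the 2 farthest libraries) and Camkv r = -0.385 (rho = -0.329, adjusted permutation p = 0.022 for r and 0.0678 for rho, r = -0.483 without its 2 farthest). The other 7 genes did not pass. Both of these pooled values cover groups of opposite sign, with r of 0.38 for Pcp4 in wild-type DMS and -0.707 to -0.545 in the other groups, and of 0.488 for Camkv in Foxp2hum/hum DLS and -0.75 to -0.405 in the others. Gap43 had a pooled r of -0.118 (adjusted permutation p = 0.545), from 0.511 in wild-type DMS, -0.446 in Foxp2hum/hum DMS, -0.175 in wild-type DLS and -0.375 in Foxp2hum/hum DLS. Whether the groups differ in these relations was not tested.

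The promoter sequences of the 3 genes with a 1.5-fold or larger excess in DLS are shown as RefSeq gives them on GRCm38.p6, from 250 bases before to 50 after the annotated start, read 5′ to 3′ on the gene's strand. Of the 9 genes, 6 matched an entry. Capitals mark any match, on either strand, to TGACG (the core of a cAMP response element), TGTTTA (a forkhead motif), AGGTCA (a nuclear receptor core) or GGGCGG (the GC box).
Nrgn, chr9:37552696-37552995, minus strand: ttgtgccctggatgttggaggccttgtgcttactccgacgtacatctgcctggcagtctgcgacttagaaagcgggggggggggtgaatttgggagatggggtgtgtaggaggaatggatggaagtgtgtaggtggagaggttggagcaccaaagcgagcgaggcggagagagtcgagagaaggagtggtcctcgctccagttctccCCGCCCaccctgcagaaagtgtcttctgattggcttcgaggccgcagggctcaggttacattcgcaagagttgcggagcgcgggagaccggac
Pcp4, chr16:96467356-96467655, plus strand: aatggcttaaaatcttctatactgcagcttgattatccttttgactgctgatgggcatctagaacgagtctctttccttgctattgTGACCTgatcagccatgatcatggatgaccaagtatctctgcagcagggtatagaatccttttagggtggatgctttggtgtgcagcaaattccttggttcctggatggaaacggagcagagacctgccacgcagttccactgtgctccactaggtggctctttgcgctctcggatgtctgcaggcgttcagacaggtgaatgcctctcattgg
Camkk2, chr5:122779361-122779660, minus strand: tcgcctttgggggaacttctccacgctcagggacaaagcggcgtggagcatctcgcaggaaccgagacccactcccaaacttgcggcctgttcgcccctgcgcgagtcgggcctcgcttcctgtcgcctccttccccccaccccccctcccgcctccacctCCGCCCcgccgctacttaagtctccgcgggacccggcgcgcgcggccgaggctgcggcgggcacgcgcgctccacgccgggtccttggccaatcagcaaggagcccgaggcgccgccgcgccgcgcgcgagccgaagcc
Nrgn and Camkk2 each held 1 GC box, which 35.7% of 32851 promoter windows of this length hold. Pcp4 held 1 nuclear receptor core, which 16.3% of windows hold. The forkhead motif (13.4% of windows) and the cAMP response core (20.8%) matched in none of these 3 windows. The GC content was 59.3%, 48.7% and 73.3% in the order printed, with a median of 52.7% over all windows, and the 3 windows thus differed in base composition and in the letters matched.

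The question of the study was whether the humanised allele changed expression in either region. None of the 9 genes passed the test between genotypes in DMS, in DLS or averaged over the regions, and none had a detectable interaction of genotype and region. The same held for every gene tested (0% of 19561 in each of the 4 contrasts, limma with Benjamini-Hochberg adjustment). At an unadjusted p under 0.05 there were 700, 843, 1679 and 321 genes in the order named. Libraries of different regions were taken as independent. If they share animals and vary together, the averaged intervals and p-values are too small and those of the interaction too large. The labels do not allow this to be checked. For genotype in DLS, edgeR's quasi-likelihood test called 0 genes and DESeq2 called 3, none of them among the 9.

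**Figure D2:**
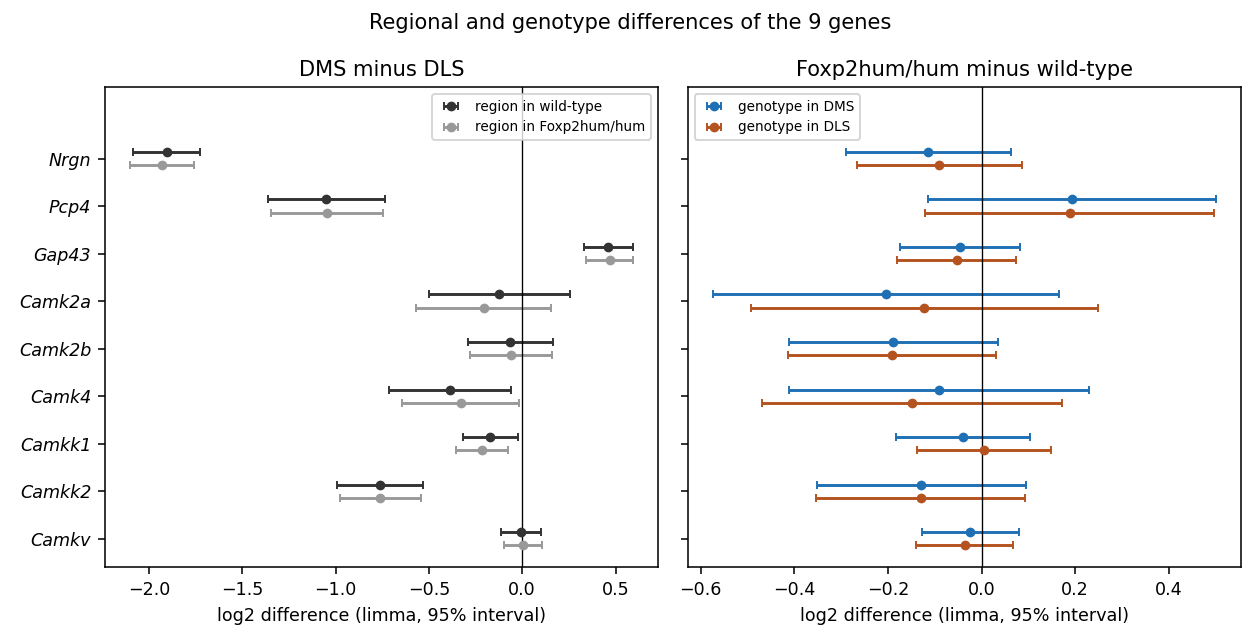
Difference (log2, horizontal axes) of each of the 9 genes between regions in each genotype, left, and between genotypes in each region, right. Points are limma estimates and bars their 95% intervals over libraries. The regional differences run from -1.93 to 0.47, and on the right, whose axis is narrower, every interval includes 0.

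Camk2b was lower in Foxp2hum/hum mice by the same amount in each region, at -0.19 ± 0.11 in DMS and -0.19 ± 0.11 in DLS (log2 ± SE). Averaged over the regions, the difference of -0.19 had a 95% interval of -0.35 to -0.03, with an unadjusted p of 0.019 and a limma adjusted p of 0.574. This interval and these p-values may be too small if the regions share animals. Wild-type values ran from 8170 to 16780 in DMS (median 12460) and from 9034 to 16180 in DLS (median 12960). Foxp2hum/hum values ran from 7761 to 13360 (median 11350) and from 7671 to 14590 (median 11580). The genotypes overlapped in both regions, and the difference did not hold after correction.

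Pcp4 had the only averaged difference above 0, at 0.19 with a 95% interval of -0.03 to 0.41 (limma adjusted p = 0.575). The other 7 averaged differences ran from -0.16 for Camk2a to -0.02 for Camkk1, with limma adjusted p between 0.582 and 0.906. The Nrgn difference averaged -0.10 (95% interval -0.23 to 0.02) and that of Gap43 -0.05 (95% interval -0.14 to 0.04). Every 95% interval of the 9 genes in DMS, in DLS and averaged lay within a 1.5-fold change in either direction. The interaction values ran from -0.08 to 0.06, with the interval within 1.5-fold for 8 of the 9 genes and reaching -0.61 for Camk2a.

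The ratio of the CaMKII subunits sets the make-up of the holoenzyme. The proteins were not measured here, and the ratio of the read counts of their genes did not detectably differ between genotypes. The mean log2 ratio of Camk2a to Camk2b was 0.69 ± 0.22 in wild-type DMS and 0.68 ± 0.29 in Foxp2hum/hum DMS, a difference of -0.02 (two-sided permutation test, adjusted p = 0.889). In DLS it was 0.75 ± 0.23 and 0.82 ± 0.31, a difference of 0.07 (permutation test, adjusted p = 0.738). The ratio of Camkk2 to Camkk1 differed by -0.09 in DMS and -0.13 in DLS (permutation test, adjusted p = 0.738 for both). Adjustment was over these 4 comparisons.

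The rest of the pathway was read from a list of 44 other calmodulin-related genes that were tested. Between regions, 18 of the 44 passed the test in wild-type mice (6 higher and 12 lower in DMS) and 18 in Foxp2hum/hum mice (again 6 and 12), with 17 of them passing in both. Of all genes tested, 17.3% passed in wild-type mice (8.54% higher, 8.72% lower) and 18.1% in Foxp2hum/hum mice (9.33% higher, 8.82% lower). The median log2 difference of the list was -0.12 and -0.09, against 0.01 and 0.02 over all genes. Under quantile normalisation the list split into 6 higher and 6 lower in wild-type mice and 6 higher and 4 lower in Foxp2hum/hum mice, so the number of lower genes depended on the scaling. The list was drawn up with regional results known. Its counts, and the regional p-values of its genes named below, are therefore no independent evidence of a difference or of a direction.

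**Figure D3:**
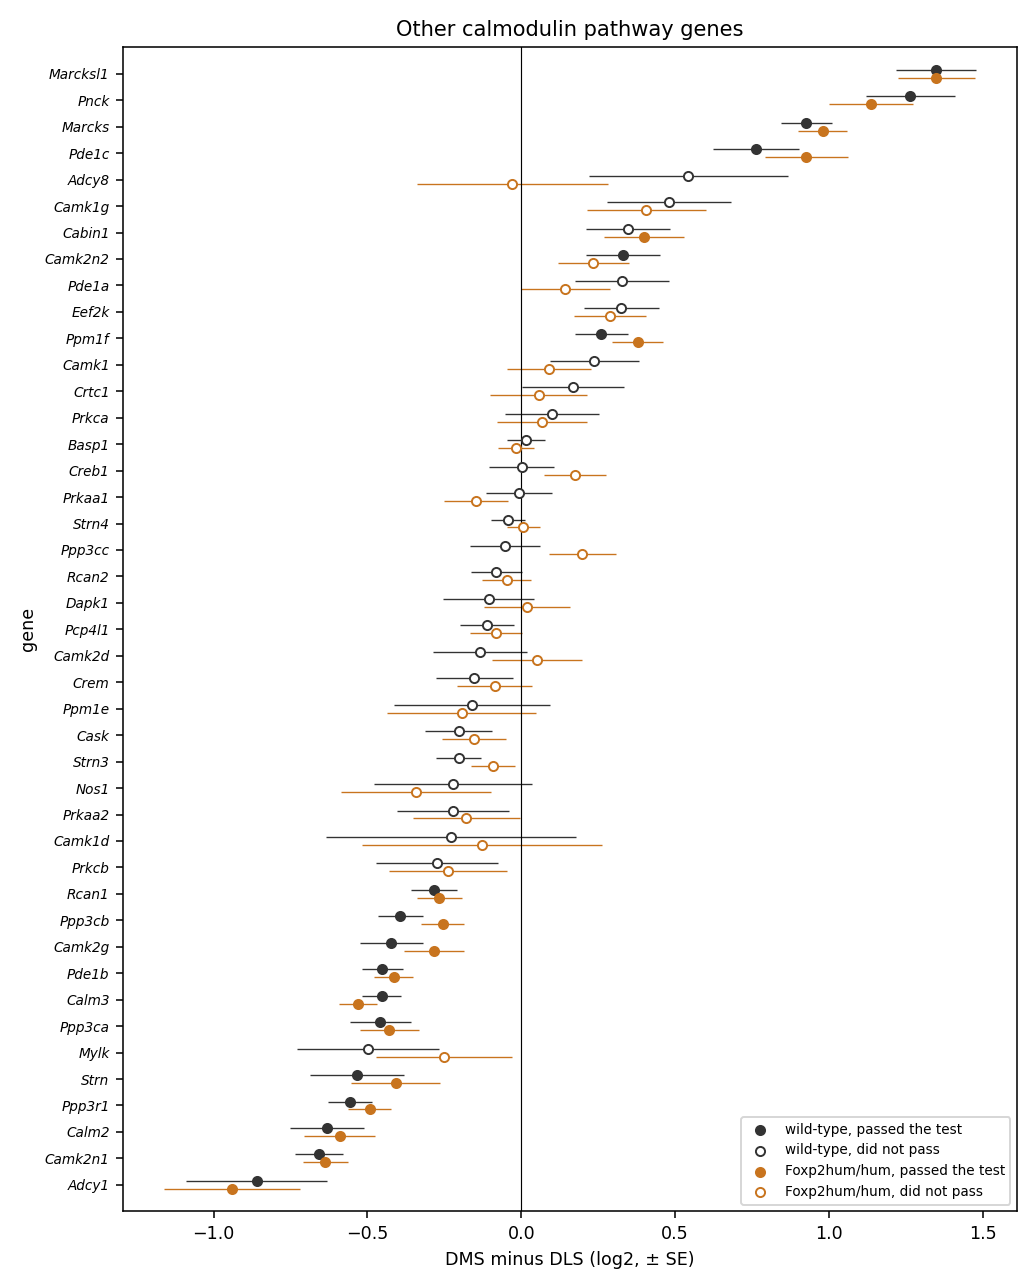
DMS minus DLS difference (log2, horizontal axis, bars ± SE) of 43 of the other calmodulin pathway genes (vertical axis, ordered by the wild-type value) in wild-type and Foxp2hum/hum mice. Filled points passed the test. Marcksl1 and Pnck lie farthest to the right at 1.14 or more, and Adcy1 farthest to the left at -0.86 and -0.94.

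Among the calmodulin genes, Calm3 was lower in DMS by 0.45 ± 0.06 in wild-type mice (limma adjusted p = 2.21e-07) and by 0.53 ± 0.06 in Foxp2hum/hum mice (limma adjusted p = 1.43e-09), in log2 units. Its DMS libraries ran from 14180 to 19620 and its DLS libraries from 20030 to 28510, with no overlap. Calm2, named after its values were seen because it encodes the same protein, differed by -0.63 in wild-type mice and by -0.59 in Foxp2hum/hum mice. It passed in each genotype, but under quantile normalisation it passed in neither, and Calm3 did not pass in wild-type mice.

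Camk2n1, an inhibitor protein of CaMKII, was also lower in DMS, at -0.66 ± 0.08 and -0.64 ± 0.07 (log2 ± SE, limma adjusted p = 2.73e-09 and 1.77e-09). Its values ran from 17960 to 28870 in DMS and from 29900 to 48300 in DLS. Under quantile normalisation it did not pass in either genotype. Ppp3r1, the regulatory subunit of the phosphatase calcineurin, was lower in DMS by 0.56 ± 0.07 and 0.49 ± 0.07 (log2, limma adjusted p = 3.2e-08 and 1.75e-07), but it shares exons on the same strand with Wdr92, whose value was 103% of its own. Of the 7 genes of calcineurin and its regulators, 4 were lower in each genotype, but under quantile normalisation 3 were in wild-type mice, without Ppp3ca, and 2 in Foxp2hum/hum mice, without Ppp3ca and Ppp3cb. Cabin1, named after its values were seen, passed as higher in DMS than in DLS in Foxp2hum/hum mice. Its difference of 0.40 there (limma adjusted p = 0.0241) stood beside 0.35 in wild-type mice (limma adjusted p = 0.0725), and its interaction did not pass.

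Of the 3 genes for phosphodiesterases that calmodulin activates, Pde1b and Pde1c passed in opposite directions and Pde1a did not pass. Pde1b, abundant in medium spiny neurons, was lower in DMS by 0.45 ± 0.07 and 0.42 ± 0.06 (log2, limma adjusted p = 7.84e-07 and 1.58e-06), though not past the threshold under quantile normalisation. Pde1c was higher in DMS by 0.76 ± 0.14 and 0.93 ± 0.13 (limma adjusted p = 3.86e-05 and 3.55e-07). Its DMS values ran from 442 to 926.6 and its DLS values from 175.5 to 634.7. In wild-type mice only 5 of 11 DMS libraries were above every DLS library, and in Foxp2hum/hum mice all 12 were. Pde1a, named after its values were seen to complete the family, differed by 0.33 and 0.14 (log2, limma adjusted p = 0.14 and 0.563).

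Higher in DMS with Gap43 were the growth-associated genes Marcks and Marcksl1, whose proteins bind calmodulin and the cell membrane and are substrates of protein kinase C. Marcks differed by 0.93 ± 0.08 and 0.98 ± 0.08 (log2 ± SE, limma adjusted p = 1.33e-12 and 4.49e-14), with 1614 to 2950 in DMS against 999.3 to 1524 in DLS. Marcksl1 differed by 1.35 ± 0.13 and 1.35 ± 0.12 (limma adjusted p = 1.22e-11 and 2.79e-12), with 620.8 to 1235 in DMS against 223.1 to 470.6 in DLS. Both genes were separated between the regions without overlap. Basp1, another growth-associated protein gene, differed by 0.02 and -0.02 (limma adjusted p = 0.895 and 0.887). Pcp4l1, the relative of Pcp4 shown above, differed by -0.11 and -0.08 (limma adjusted p = 0.431 and 0.565), with 95% intervals of -0.29 to 0.07 and -0.25 to 0.09 that do not reach the difference of Pcp4.

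Pnck, a kinase of the CaMKI family, was the kinase gene of the list with the largest regional difference, at 1.26 ± 0.14 and 1.14 ± 0.14 (log2 ± SE, limma adjusted p = 1.39e-09 and 6.52e-09). Its values ran from 341.3 to 871 in DMS and from 132.3 to 398.6 in DLS. Of the 5 downstream kinase and transcription factor genes (Prkaa1, Prkaa2, Creb1, Crem and Crtc1), none passed in either genotype. No gene of the list passed between genotypes (0 of 44 in each genotype contrast and in the interaction).

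Within the groups, several of the 9 genes varied together or in opposition. The group means were removed from each log2(value + 1), and Pearson correlations were taken over the 46 libraries, with two-sided permutation tests that shuffled libraries within groups. In all 90 relations were computed and adjusted together, and the smallest adjusted p this allowed was 3.75e-05. Camk2a, Camk2b, Camk4 and Camkk2 rose and fell together: all 6 pairs had r between 0.767 and 0.864 (adjusted permutation p = 3.75e-05), and within single groups r was 0.696 to 0.959. Pcp4 and Gap43 went the other way, with r between -0.8 and -0.565 in all 8 pairs with those 4 genes (adjusted permutation p of 0.000418 or less). Many other genes had relations of the same sign. Among genes with the longest 25% of transcripts, the median r was 0.633 with Camk2a, 0.637 with Camk2b, 0.682 with Camk4 and 0.593 with Camkk2. It was -0.63 with Pcp4 and -0.536 with Gap43. Such relations are therefore not particular to the 9 genes.

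**Figure D4:**
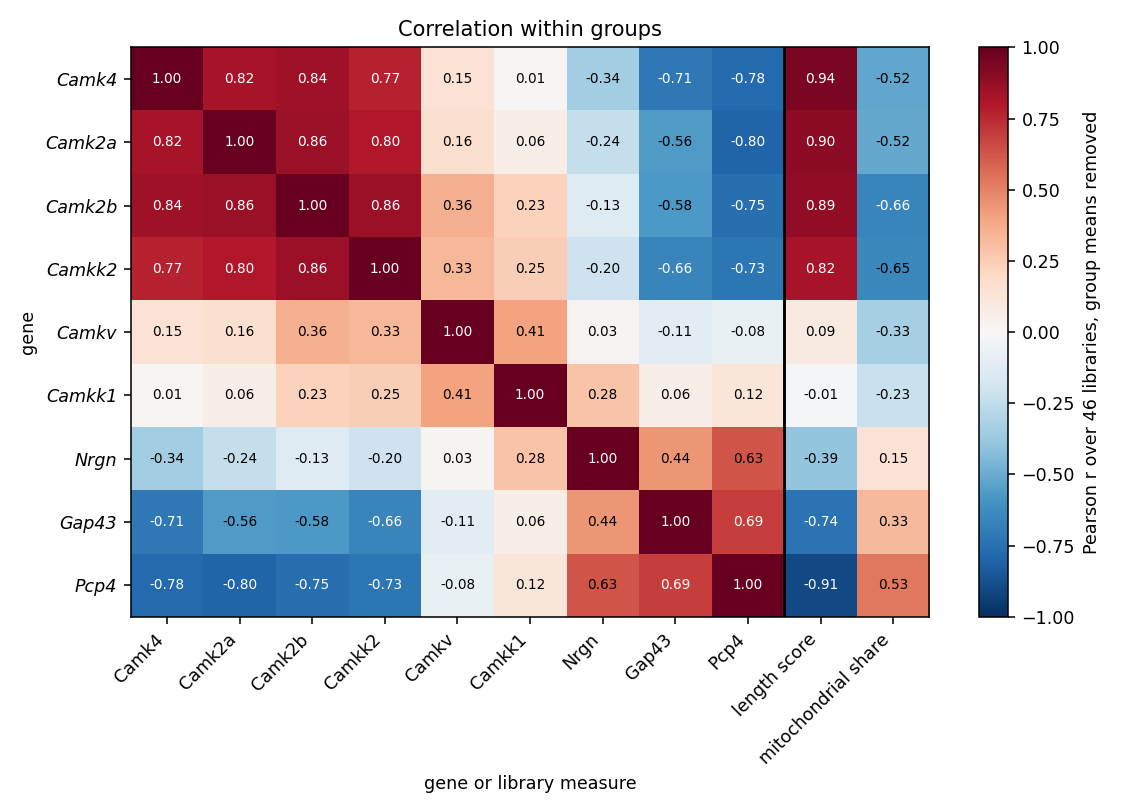
Pearson r between the 9 genes (rows and left columns), and of each with the length score and the mitochondrial share of reads (right columns), over 46 libraries after removal of group means. Camk4, Camk2a, Camk2b and Camkk2 form a block of r from 0.77 upwards, Pcp4 and Gap43 are negative against it, and Camkv and Camkk1 are near 0 against most genes.

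The pair of Pcp4 and Camk2a had r = -0.8 and Spearman's rho = -0.834 (adjusted permutation p = 3.75e-05 for r). In the groups r was -0.803 in wild-type DMS, -0.886 in Foxp2hum/hum DMS, -0.713 in wild-type DLS and -0.868 in Foxp2hum/hum DLS. It was -0.79 without the 2 libraries farthest from the median of Pcp4, so the relation did not rest on them. Camk2a and Camk2b had r = 0.864 and rho = 0.827, and 0.844 without the 2 farthest libraries.

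Nrgn followed Pcp4 (r = 0.63, rho = 0.537, adjusted permutation p = 0.000144, r = 0.512 without the 2 farthest libraries) while its r with Camk2a and Camk2b did not pass (-0.237 and -0.13, adjusted permutation p = 0.235 and 0.545). The value with Camk2a pools groups of opposite sign: r was 0.138 in wild-type DMS and 0.304 in wild-type DLS, against -0.711 and -0.5 in Foxp2hum/hum DMS and DLS, a contrast that was not tested. Camkk1 and Camkv were related to few of the others, and their largest r was 0.405, with each other (rho = 0.403, adjusted permutation p = 0.0187, r = 0.375 without the 2 farthest libraries). The related activator Camkk2 therefore varied with the CaMKII genes, while Camkk1 had r = 0.056 and 0.227 with Camk2a and Camk2b, though the difference between these correlations was not tested. Camkk2, Camk2a and Camk2b each rose with the length score described below (r = 0.821, 0.896 and 0.885), and Camkk1 did not (r = -0.008).

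Single libraries at the edge of their groups show the pattern. Libraries 94 and 64 had the lowest r of their groups with the mean of the rest of the group, at 0.949 each. Their length scores (defined below) were 1.20 and -0.36, the highest and the lowest of their groups. Library 94 of Foxp2hum/hum DLS had the lowest Nrgn (22090), Pcp4 (14940) and Gap43 (2525) of its group, and the highest Camk2a (35000), Camk2b (14590) and Camk4 (9093). Library 64 of Foxp2hum/hum DMS had the highest Pcp4 (24150) and Gap43 (4978) of its group, and the lowest Camk2a (9119), Camk2b (7761), Camk4 (3320) and Camkk2 (714.5). Without library 94 the DMS minus DLS difference in Foxp2hum/hum mice was -1.98 for Nrgn and -1.16 for Pcp4 on the log2 scale.

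A measure of transcript length also varied between the libraries. This length score was computed per library as the mean log2 value of the 3173 genes with the longest 25% of transcripts (4521 bases or more) minus that of the 3178 genes with the shortest 25% (1910 bases or less), without the 9 genes. Its median was 0.44 in wild-type DMS, 0.30 in Foxp2hum/hum DMS, 0.41 in wild-type DLS and 0.24 in Foxp2hum/hum DLS, and it ran from -0.43 to 1.20 over the libraries, with its highest value in library 94. Transcript lengths are those of the longest coding transcript in GENCODE M1, which may be incomplete. For the 9 genes they are 12.3 kilobases for Camk4, 4.97 for Camk2a, 4.02 for Camk2b, 3.42 for Camkk1, 3.03 for Camkv, 2.78 for Camkk2, 1.42 for Gap43, 1.29 for Nrgn and 0.641 for Pcp4. The relations of the 9 genes to the score, given next, do not all follow this order: Camkk2 is shorter than Camkk1 and Camkv, and Nrgn is shorter than Gap43. Across 12690 genes, each gene's within-group r with a member was also ranked against its transcript length. Spearman's rho was 0.726 for Camk4, 0.698 for Camk2a, 0.686 for Camk2b and 0.685 for Camkk2. It was -0.729 for Pcp4, -0.719 for Gap43 and -0.646 for Nrgn, against -0.042 for Camkk1 and 0.231 for Camkv.

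**Figure D5:**
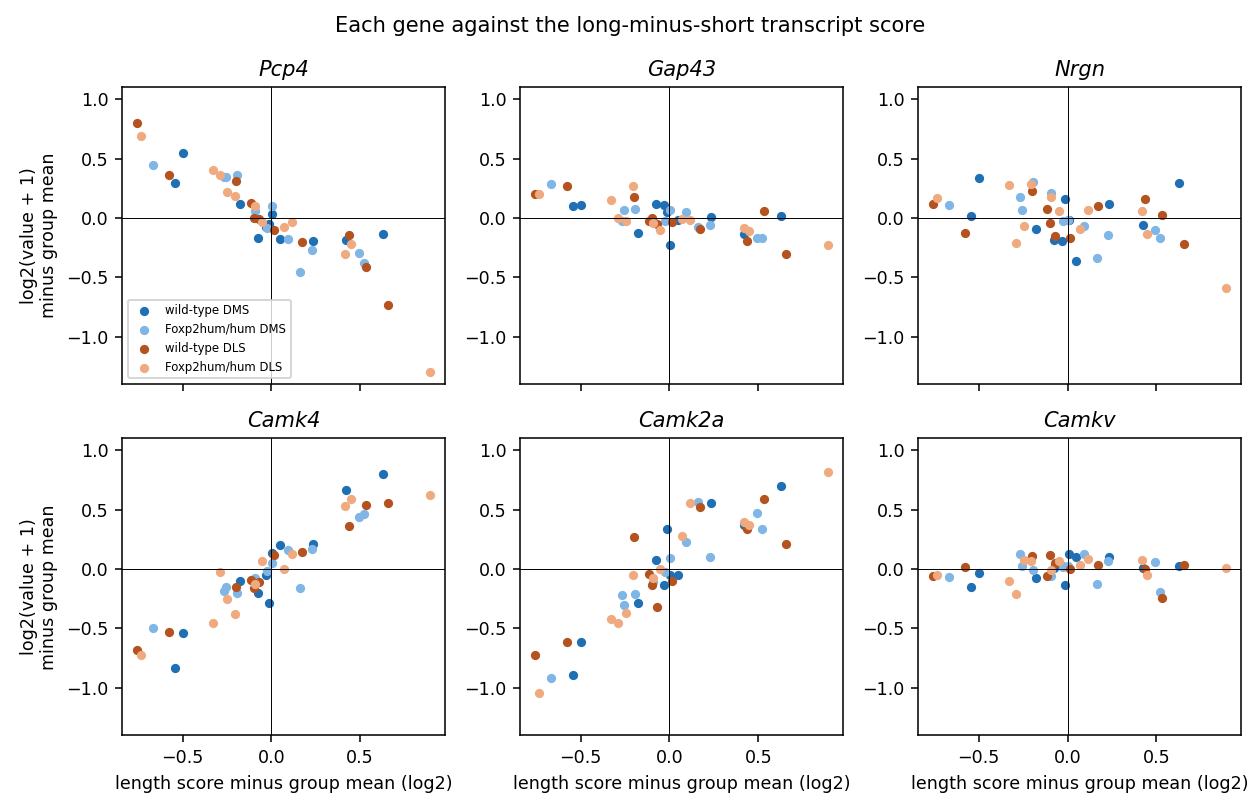
Each gene's log2(value + 1) minus its group mean (vertical axes) against the length score of the library minus its group mean (horizontal axes), for 6 of the 9 genes, with 1 point per library coloured by group. Pcp4 falls along the score (r = -0.905), Camk4 and Camk2a rise along it (r = 0.942 and 0.896), and Camkv stays level (r = 0.086).

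Within the groups, Camk4 had r = 0.942 with the score, Camk2a 0.896, Camk2b 0.885 and Camkk2 0.821, while Pcp4 had -0.905 and Gap43 -0.739 (adjusted permutation p = 3.75e-05 for each). The corresponding rho was 0.915, 0.895, 0.876 and 0.833, and -0.937 and -0.673, and r without the 2 libraries farthest from each gene's median was 0.941, 0.875, 0.903, 0.79, -0.893 and -0.729. Nrgn had -0.394 (rho = -0.378, adjusted permutation p = 0.022), and -0.283 without the 2 farthest libraries. By group its r was 0.04 in wild-type DMS and -0.156 in wild-type DLS, against -0.668 and -0.673 in the Foxp2hum/hum groups, and whether the groups differ in this was not tested. Camkk1 and Camkv had -0.008 and 0.086. The share of reads from mitochondrially encoded genes moved with several of the 9 genes as well, with r = -0.663 for Camk2b, -0.647 for Camkk2 and 0.53 for Pcp4 (adjusted permutation p of 0.000208 or less).

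With the score as a covariate, a fit added after seeing the data, the regional differences stayed as they were, at -1.91 and -1.93 for Nrgn, -1.08 and -1.04 for Pcp4, 0.45 and 0.47 for Gap43 and -0.74 and -0.76 for Camkk2. The SE of the Pcp4 difference went from 0.16 and 0.15 to 0.07 in each genotype. The averaged genotype differences of Camk2b and Pcp4 became smaller, at -0.09 and 0.05 (limma adjusted p = 0.71 and 0.901). That of Gap43 became -0.09, with an unadjusted p of 0.00623 and a limma adjusted p of 0.641, and no gene of the 9 passed. What sets the score in a library was not tested.

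The genes whose values most resembled those of each member, by Pearson r of group-centred log2 values over the 46 libraries among genes with a mean of at least 50, are given as a description. Pcp4 was most like Dynll1 (0.952), Psenen (0.952) and Hsbp1 (0.943), and Nrgn most like Tecr (0.838), Cfl1 (0.831) and Thy1 (0.801). For Gap43 they were AC111009.1 (0.829), Phkg2 (0.825) and Fabp3 (0.817). Camk2a was most like Shank3 (0.981), a postsynaptic scaffold gene, Crtc1 (0.976) and Agap2 (0.975), and Camk2b most like Ogdh (0.961) and Adcy5 (0.959). Camk4 was most like Akap11 (0.98), Ppp1r9a (0.968) and Prkcb (0.963), and Camkk2 most like Zhx3 (0.909), Stat3 (0.908) and Cntnap1 (0.907). Camkk1 reached only 0.593 with Tmx2, 0.58 with Ndrg3 and 0.57 with Sept5, and Camkv 0.666 with Pde1b, 0.655 with RP23-107N10.4 and 0.639 with Accn4. The libraries share depth and the length score above, which these correlations do not remove.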

How the data were processed

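Libraries from 15 ng of total RNA per sample ran on 3 flow cells, with no record of which library ran where in the sources used here. Per the submitters' processing notes, the tools were TopHat 1.4.1, bedtools and DESeq, and the build was mm9. The deposited signal is reads per gene divided by a DESeq size factor per library, per the file headers, and 100% of values came out as whole reads within 0.01 in the library with the fewest. The 46 libraries were grouped by the table's header. Genes whose mean reached 10, numbering 19561, were fitted on log2(value + 1) with limma 3.58.1 (R 4.3.3), 4 group means, a trend and Benjamini-Hochberg adjustment at 0.05. Libraries of different regions were taken as independent, since none is tied to an animal. Ratios and correlations used 100000 permutations (SciPy 1.17.1, NumPy 2.4.6). Whole reads were tested with edgeR 4.0.16 and DESeq2 1.42.0 as alternatives. The limma procedure was tested on simulated counts. Named pathway genes were the 8 with the smallest of the larger p of both regional contrasts. The members and lists were chosen with earlier results of these data known, and the length score, the removal of libraries 70 and 72 and leaving out each library were chosen after seeing the data. Positions and overlaps are from GENCODE M1. Some genes and sequences are not reported here.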

Additional observations from a re-analysis of the deposited data

How the results depend on the processing

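No paired analysis was possible because the labels give no replicate numbers. Under other pseudocounts, filters, scalings and tools, of the 414 genotype and interaction values of the 9 genes none passed, with a lowest adjusted p of 0.256. Of these values 19 changed sign, all of them small. Under quantile normalisation Camkv became 0.0265 in DMS and 0.0122 averaged, and Camk2a 0.003 in DLS. With the length score as a covariate Camk4 became 0.0436 in DMS, 0.0204 in DLS and 0.032 averaged, Camk2a 0.0635 in DLS and 0.0037 averaged, and the interactions of Camk2b and Camkk2 -0.0182 and -0.0194. Camkk1 in DLS became -0.0014 with array weights and -0.0132 without libraries 70 and 72. The interaction was -0.0075 with edgeR and -0.0083 with DESeq2 for Camk2b, -0.0014 and -0.0018 for Camkk2, 0.0164 with array weights and 0.0023 without libraries 70 and 72 for Nrgn, and -0.0341 with array weights for Pcp4. Quantile normalisation lowered the pathway genes passing between regions in Foxp2hum/hum mice from 18 to 10 and moved the regional difference of Nrgn to -1.65 and -1.72. The cause was not tested. Leaving out each library in turn gave 16 to 20 such genes in wild-type mice and 16 to 18 in Foxp2hum/hum mice, and 0 of the 9 genes between genotypes. With the length score as a covariate, 5673 and 5874 genes in all passed between regions, against 3377 and 3550. The genotype fit in DLS called 0 genes, 3 with DESeq2 and 1 with array weights.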

Other observations

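Camk1d, a CaMKI gene outside the 9, had a scatter far above that of the other calmodulin kinases. It ran from 5265 to 238800 in wild-type DMS (median 10030), from 6355 to 37650 in Foxp2hum/hum DMS (median 11000), from 8779 to 119100 in wild-type DLS (median 11880) and from 7879 to 44220 in Foxp2hum/hum DLS (median 12800). It was singled out after its values were seen. Camk1d spans 421059 bases, of which 7427 are exon, and reads appeared to be counted over whole spans. The high values need therefore not come from its exons, and their source was not tested.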
